A study of Mus musculus with 9 samples.

Results

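The 10 genes followed here sit at the head of the programme that sets how much fuel a heart cell can burn. They are Ppargc1a and Ppargc1b, which encode the coactivators PGC-1alpha and PGC-1beta, the estrogen-related receptor (ERR) genes Esrra, Esrrb and Esrrg, the peroxisome proliferator-activated receptor (PPAR) genes Ppara and Ppard, the retinoid X receptor genes Rxra and Rxrg, and Tfam, a mitochondrial DNA-binding factor. They were chosen by name, with earlier results of these data known, and all 10 were among the 21463 genes listed at every age. Each was abundant enough to be tested at every age.

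RNA was read from mouse hearts at 1, 4 and 8 weeks of age. Klf9KI hearts carried the alphaMHC-Cre driver together with a Klf9 knock-in described in the labels as a transgene, and Wt-Cre hearts carried the driver alone, so both genotypes contained Cre. The alphaMHC promoter is active in cardiac muscle cells, whereas the RNA came from the heart as a tissue. There were 3 hearts of each genotype at each age, which gives 18 libraries. Chromatin bound by Klf9 was read in 1 TAC and 1 sham library from mice of 12 to 14 weeks, 2 weeks after transverse aortic constriction (TAC), an operation that loads the left ventricle with pressure. In RNA from whole tissue, fewer cells of a type and less RNA per cell cannot be told apart.

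PGC-1 coactivators do not bind DNA themselves. They are recruited by nuclear receptors, chiefly ERRs and PPARs, and raise the transcription of genes for fatty acid oxidation, the tricarboxylic acid cycle and the respiratory chain. PPARs bind DNA as pairs with retinoid X receptors and respond to fatty acids, and ERRs are classed as orphan receptors. In the heart this system is best known for the switch after birth from glucose and lactate toward fatty acids. Klf9 is a Krüppel-like zinc finger factor of the group that binds GC-rich and CACCC-type elements.

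The targeted gene, Klf9, averaged 164 ± 16.2 counts scaled to library size (CPM) in Klf9KI hearts and 17.0 ± 2.63 CPM in Wt-Cre hearts at 1 week. At 4 weeks the means were 169.5 ± 18.6 and 130.4 ± 14.7 CPM, and at 8 weeks they were 132 ± 9.94 and 59.1 ± 16.1 CPM (SD, n = 3 each). The log2 fold change of Klf9KI over Wt-Cre was 3.26 at 1 week (edgeR quasi-likelihood test, adjusted p = 3.55e-09), 0.37 at 4 weeks (adjusted p = 0.111) and 1.19 at 8 weeks (adjusted p = 0.00594). With the replicate block the change at 4 weeks passed (0.37, adjusted p = 0.0311), and without Wt-Cre replicate 1 the change at 8 weeks was 1.10 with an adjusted p of 0.0548. In Wt-Cre hearts Klf9 itself rose by 2.94 on the log2 scale from 1 to 4 weeks (adjusted p = 7.88e-10), and between 4 and 8 weeks it fell by 1.15 (adjusted p = 0.000346). Library totals lay between 12086856 and 32855383 counts. The 9 cardiac muscle markers summed to at least 28667 CPM in every library. Xist stood at 581 and 499.8 CPM in Klf9KI replicates 1 and 2 of 1 week and at no more than 3.58 CPM in any other library. The atrial gene Myl7 ran from 2.30 to 359 CPM in Klf9KI hearts and from 180.1 to 1010 CPM in Wt-Cre hearts at 1 week. Values at 1 week with sex or the Myl7 level as a covariate are given in the closing section. Among Klf9KI hearts of 1 week only replicate 3 lacked Xist at such a level, and no Wt-Cre heart had it. With sex as a covariate, or without the Xist-carrying libraries, the genotype effect therefore rests on that 1 Klf9KI heart.

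Klf9-bound regions were assigned by the authors to 4 of the 10 regulators, Ppara, Ppard, Esrra and Ppargc1b. That is 40% of the members, against 34.2% of 16656 tested gene symbols, so a region was about as frequent at these genes as at any tested gene. Near the gene starts, 3 of the 10 had a region within 1 kb, or 30%, against 24.4% of the tested symbols. The sequences below are shown because their windows overlap those 3 regions. They are RefSeq promoter windows of build GRCm38.p6, which run from 250 bases before to 50 bases after the annotated start. They are written 5′ to 3′ on the gene's strand, and capitals mark every match to the GC box GGGCGG or the CACCC box CACCC on either strand.
Ppara: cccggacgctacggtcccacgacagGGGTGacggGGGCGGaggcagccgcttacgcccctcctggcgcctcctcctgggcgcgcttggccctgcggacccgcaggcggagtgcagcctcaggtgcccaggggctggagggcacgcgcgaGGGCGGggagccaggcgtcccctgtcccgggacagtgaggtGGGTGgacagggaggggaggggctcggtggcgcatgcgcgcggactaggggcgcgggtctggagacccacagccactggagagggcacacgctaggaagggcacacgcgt
Ppard: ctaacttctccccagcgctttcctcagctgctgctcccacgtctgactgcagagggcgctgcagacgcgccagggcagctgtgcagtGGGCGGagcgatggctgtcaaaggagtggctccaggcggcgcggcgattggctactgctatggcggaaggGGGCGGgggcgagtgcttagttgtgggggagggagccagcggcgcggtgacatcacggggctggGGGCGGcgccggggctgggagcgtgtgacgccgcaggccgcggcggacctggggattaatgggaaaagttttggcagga
Esrra: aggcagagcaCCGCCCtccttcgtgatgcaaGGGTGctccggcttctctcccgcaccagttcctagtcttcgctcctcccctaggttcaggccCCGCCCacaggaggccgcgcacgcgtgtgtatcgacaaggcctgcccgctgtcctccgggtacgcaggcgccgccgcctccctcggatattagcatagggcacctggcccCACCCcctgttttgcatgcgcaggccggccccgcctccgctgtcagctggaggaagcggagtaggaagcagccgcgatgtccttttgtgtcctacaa

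The Ppara window lies at chr15:85735526-85735825 on the plus strand and is 74.7% G or C. It holds 2 GC boxes and 2 CACCC boxes, and its bases 1 to 175 lie inside the Klf9 region. The Ppard window, chr17:28232504-28232803 on the plus strand, holds 3 GC boxes and no CACCC box, with bases 44 to 294 inside the region. The Esrra window, chr19:6921759-6922058 on the minus strand, holds 2 of each box and has bases 1 to 291 inside the region. Matches of this kind are frequent: 35.7% of 32851 promoter windows hold a GC box and 57.5% hold a CACCC box. The ERR half-site AAGGTCA, searched on both strands, was in none of the 3 printed windows and in 4.72% of all windows.

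The region at Ppara, whose protein drives fatty acid oxidation genes, was chr15:85734694-85735700 (mm10), over 1 CpG island. The authors' distance put its centre 367 bases upstream of the start. For Ppara the start behind that distance differs from those of the printed window and of the gene interval given below. The mean signal of this region, as the authors deposited it, was 21.3 in TAC and 27.7 in sham hearts, and it was called present in both libraries. At Ppard, which encodes the widely expressed PPARdelta, the region chr17:28232547-28232797 lay 82 bases upstream. Its signal was 15.7 in the TAC and 20.1 in the sham library, and it was called only in the sham library. At Esrra the region chr19:6921768-6922378 lay 265 bases upstream over 2 CpG islands, with a signal of 22.1 in TAC and 26.6 in sham hearts and a call in both. The fourth region, chr18:61397869-61398106, lay inside Ppargc1b, 2444 bases from its start and 87 bases upstream of Mir378, a microRNA gene hosted by Ppargc1b. Its signal was 9.43 in the TAC library and 23.7 in the sham library, and it was called only in sham hearts. That log2 ratio of −1.33 was the lowest of the 4, and 0.725% of all regions had a lower one. The other members' log2 ratios of TAC over sham lay between −0.38 and −0.27, against a median of −0.12 over 5238 regions. With 1 library per condition none of these differences has a replicate check, and how the signal was scaled between libraries is not stated.

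**Figure D1:**
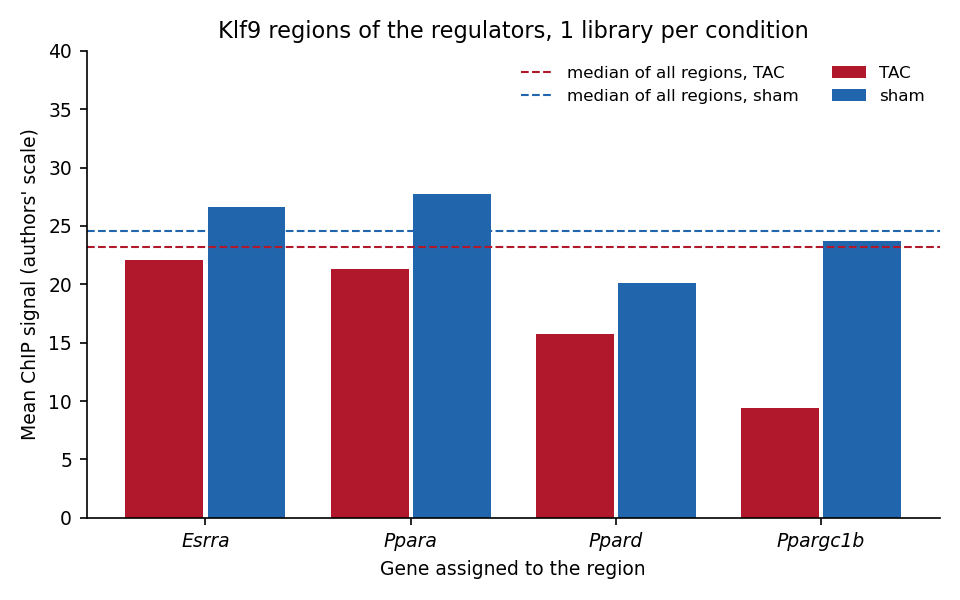
Mean Klf9 ChIP signal (authors' deposited units, linear axis from 0) of the 4 regions assigned to Ppara, Ppard, Esrra and Ppargc1b, with the TAC library left of the sham library and dashed lines at the medians of all 5238 regions, 23.2 in TAC and 24.6 in sham. All 4 bars are lower in TAC, and the Ppargc1b region has the widest gap, 9.43 against 23.7.

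Per kilobase of transcript, the levels spanned a wide range. Esrra, which encodes the ERR most tied to mitochondrial genes, was the highest in every group, with means of 59.5, 50.01 and 54.0 CPM per kb in Klf9KI hearts and 54.6, 58.9 and 77.1 CPM per kb in Wt-Cre hearts at 1, 4 and 8 weeks. Its range overlapped that of the next gene, Ppargc1a, only in Wt-Cre hearts of 4 weeks, where Ppargc1a averaged 42.3 ± 16.5 CPM per kb. At the low end, Ppara averaged 1.599 CPM per kb in Klf9KI hearts and Esrrb 1.61 CPM per kb in Wt-Cre hearts at 1 week. At 8 weeks Ppargc1b was the lowest in both genotypes, with 3.23 ± 2.02 CPM per kb in Klf9KI and 2.34 CPM per kb in Wt-Cre hearts. In the middle of the order, neighbours mostly overlapped: in Klf9KI hearts of 8 weeks each gene from Tfam down to Ppara overlapped the next. Rxrg stood in rank 5 at 1 week and in rank 2 at 8 weeks in both genotypes.

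**Figure D2:**
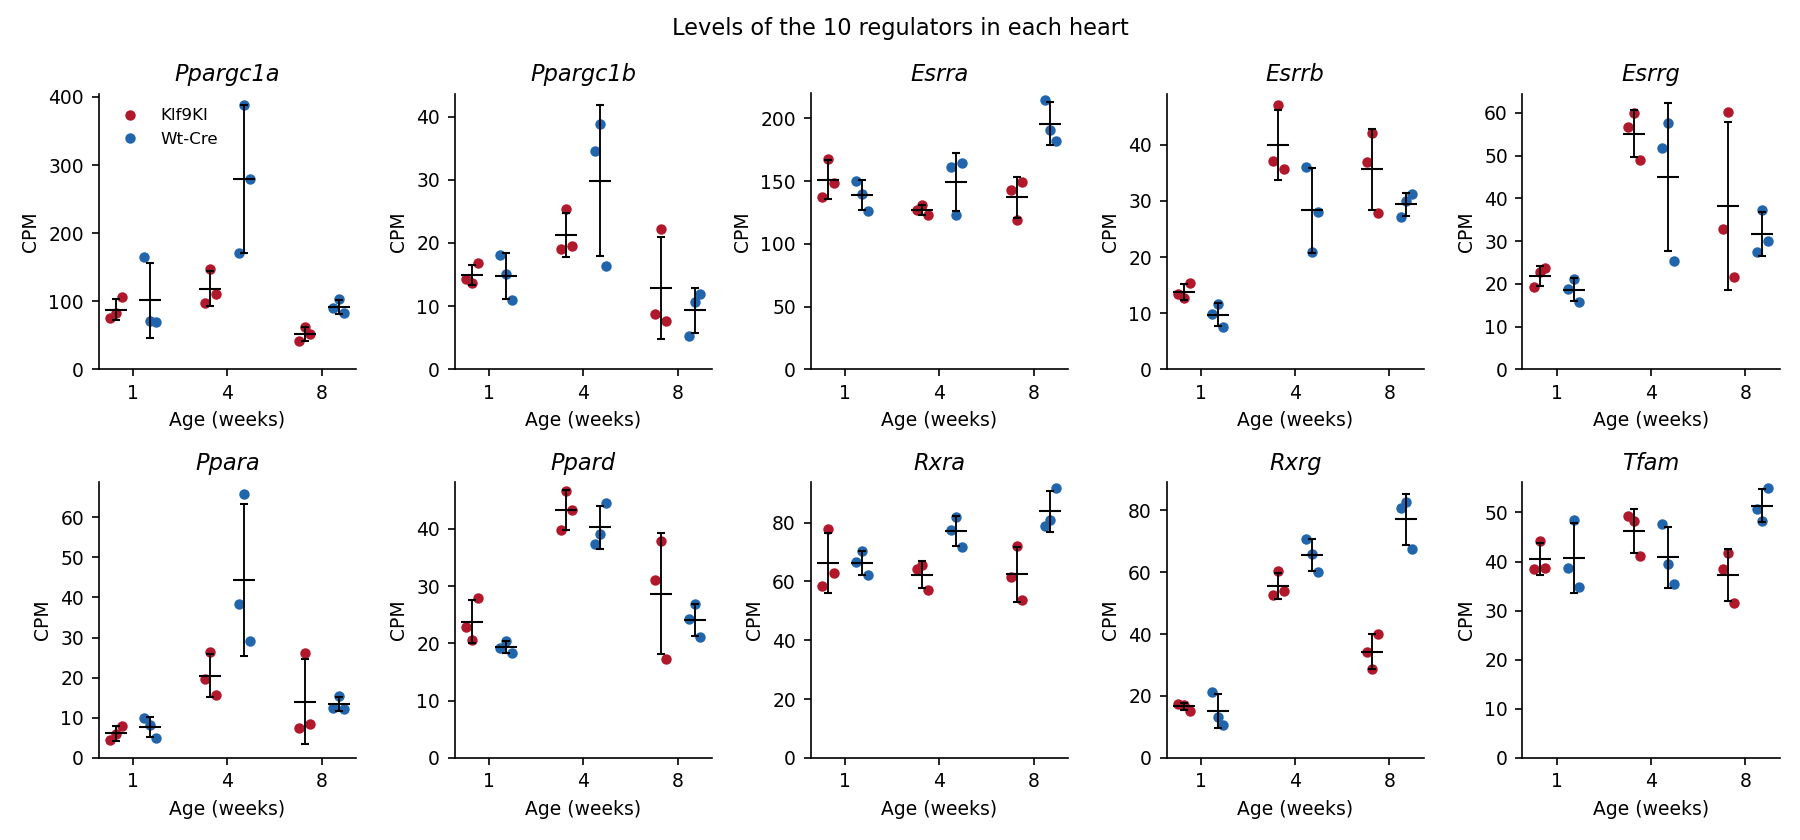
CPM of each of the 10 regulators in every heart at 1, 4 and 8 weeks, with Klf9KI left of Wt-Cre at each age, points for single hearts and bars for mean ± SD (n = 3). Ppargc1a and Ppara reach their highest values in Wt-Cre hearts of 4 weeks, and Rxrg separates at 8 weeks with 28.6 to 40.1 CPM in Klf9KI and 67.7 to 82.8 CPM in Wt-Cre hearts.

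Ppargc1a (ENSMUSG00000029167, chr5:51454250-51567726, minus strand) encodes the inducible coactivator that responds to fasting, cold and exercise. Klf9KI hearts had 75.6, 82.1 and 106 CPM at 1 week, 97.6, 147 and 111 CPM at 4 weeks, and 41.1, 61.9 and 51.5 CPM at 8 weeks. Wt-Cre hearts had 164, 70.3 and 68.8 CPM, then 170.3, 388 and 279 CPM, then 90.0, 103 and 83.1 CPM at the same ages. The genotypes overlapped at 1 week, when 1 Wt-Cre heart stood far above the other 5 hearts, and were separate at 4 and at 8 weeks. The log2 fold change of Klf9KI over Wt-Cre was −0.22 ± 0.43 at 1 week (SE; adjusted p = 0.891), −1.24 ± 0.28 at 4 weeks (adjusted p = 0.0203) and −0.81 ± 0.20 at 8 weeks (adjusted p = 0.0248). Ppargc1a was thus lower in Klf9KI than in Wt-Cre hearts at both later ages. The call at 4 weeks was lost without Klf9KI replicate 1 (adjusted p = 0.0841) or 3 (0.0825), without Wt-Cre replicate 3 (0.163), and with no filter on low counts (0.118), all by the quasi-likelihood test. At 8 weeks it was lost without Klf9KI replicate 1 (adjusted p = 0.106), without Wt-Cre replicate 1 (0.104), 2 (0.145) or 3 (0.0660), and in the fit of all 18 libraries (0.0724). The fold change remained negative in all of these.

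Ppargc1b (ENSMUSG00000033871, chromosome 18), the paralogue with overlapping roles in mitochondrial gene control, was counted with as few as 64 reads in a library. At 4 weeks it stood at 19.1, 25.3 and 19.6 CPM in Klf9KI hearts and at 34.5, 38.8 and 16.3 CPM in Wt-Cre hearts, ranges that overlap through Wt-Cre replicate 3. Its log2 fold change was 0.01 ± 0.19 at 1 week, −0.49 ± 0.28 at 4 weeks and 0.48 ± 0.44 at 8 weeks (adjusted p = 0.995, 0.314 and 0.554). Without Wt-Cre replicate 3 the change at 4 weeks was −0.79 and passed (adjusted p = 0.00250). At 8 weeks Klf9KI replicate 2 had 22.2 CPM, whereas the other two Klf9KI hearts had 8.82 and 7.70 CPM and Wt-Cre hearts had 5.34 to 11.9 CPM. Without that heart the change was −0.14 (adjusted p = 0.867). Whether the counts are strand-specific is not stated, and reads from Mir378 and from Ppargc1b were not told apart here.

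Esrra (ENSMUSG00000024955, chr19:6910977-6921813, minus strand) kept a narrow range. Klf9KI hearts had 137, 168 and 148.4 CPM at 1 week, 127, 131 and 122.9 CPM at 4 weeks, and 143, 119 and 149 CPM at 8 weeks. In Wt-Cre hearts the values were 149.9, 139.9 and 126 CPM, then 161, 122.6 and 165 CPM, then 215, 191 and 182 CPM. The genotypes overlapped at 1 and at 4 weeks, and at 8 weeks every Klf9KI heart was below every Wt-Cre heart. The log2 fold change was 0.11 ± 0.11 at 1 week, −0.24 ± 0.14 at 4 weeks and −0.49 ± 0.18 at 8 weeks (adjusted p = 0.715, 0.300 and 0.121). In the fit of all 18 libraries the change at 8 weeks was −0.51 with an adjusted p of 0.0121.

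The other ERR genes had their highest mean levels in Klf9KI hearts. Esrrb (ENSMUSG00000021255, chr12:86361117-86521628), best known for its role in pluripotent cells, had 13.4, 12.6 and 15.4 CPM in Klf9KI hearts and 9.83, 11.7 and 7.61 CPM in Wt-Cre hearts at 1 week, with no overlap. Its log2 fold change was 0.50 ± 0.20 at 1 week, 0.49 ± 0.19 at 4 weeks and 0.30 ± 0.21 at 8 weeks. None of these passed the test (adjusted p = 0.262, 0.126 and 0.423). At 4 weeks the change passed without Wt-Cre replicate 1 (0.70, adjusted p = 0.0349) and with no filter (0.51, adjusted p = 0.0487). Esrrg (ENSMUSG00000026610, chr1:187608791-188214885), required for the oxidative switch of the newborn mouse heart, averaged 55.2 ± 5.58 CPM in Klf9KI and 45.0 ± 17.2 CPM in Wt-Cre hearts at 4 weeks. Its log2 fold changes were 0.23, 0.29 and 0.29 at 1, 4 and 8 weeks (adjusted p = 0.562, 0.536 and 0.632). Klf9KI replicate 2 carried the value at 8 weeks with 60.1 CPM, where its group mates had 32.9 and 21.7 CPM, and the change was −0.18 without it (adjusted p = 0.695).

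Ppara (ENSMUSG00000022383, chr15:85734983-85802819) encodes the fatty acid sensor of heart and liver. In Klf9KI hearts it stood at 4.32, 6.04 and 8.04 CPM at 1 week, at 19.6, 26.4 and 15.6 CPM at 4 weeks, and at 7.35, 26.2 and 8.44 CPM at 8 weeks. Wt-Cre hearts held 9.83, 8.13 and 5.02 CPM, then 38.4, 65.7 and 29.2 CPM, then 12.4, 15.3 and 12.3 CPM. All Klf9KI hearts lay below all Wt-Cre hearts at 4 weeks, and the genotypes overlapped at 1 and 8 weeks. At 4 weeks Ppara was lower in Klf9KI than in Wt-Cre hearts, with a log2 fold change of −1.12 ± 0.30 (adjusted p = 0.0409). The changes at 1 and 8 weeks were −0.33 ± 0.29 and 0.08 ± 0.43 (adjusted p = 0.697 and 0.933). The 4-week call was lost in 6 of 12 alternatives, with adjusted p-values of 0.139 and 0.136 without Klf9KI replicates 1 and 3, 0.0502 and 0.0660 without Wt-Cre replicates 1 and 2, 0.1799 with no filter and 0.114 in the fit of 18 libraries. Without Wt-Cre replicate 2 the fold change at 4 weeks was −0.73. At 8 weeks it was −0.72 without Klf9KI replicate 2 (adjusted p = 0.121), against 0.08 with it.

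Ppard (ENSMUSG00000002250, chr17:28232700-28301474) did not pass the test at any age. It had 22.9, 20.7 and 27.9 CPM in Klf9KI hearts and 19.3, 20.4 and 18.3 CPM in Wt-Cre hearts at 1 week, with no overlap. Its log2 fold changes were 0.29, 0.10 and 0.27 at 1, 4 and 8 weeks (adjusted p = 0.405, 0.703 and 0.601).

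Rxrg (ENSMUSG00000015843, chr1:167598384-167639623) encodes the retinoid X receptor with the most restricted expression, found mainly in striated muscle and brain. Klf9KI hearts had 17.5, 17.1 and 15.2 CPM at 1 week, 52.6, 60.3 and 53.9 CPM at 4 weeks, and 34.3, 28.6 and 40.1 CPM at 8 weeks. Wt-Cre hearts had 21.2, 13.3 and 10.7 CPM, then 70.7, 66.0 and 60.1 CPM, then 80.9, 82.8 and 67.7 CPM. The genotypes overlapped at the earlier ages, narrowly at 4 weeks, while at 8 weeks the highest Klf9KI heart was far below the lowest Wt-Cre heart. The log2 fold change was 0.13 ± 0.22 at 1 week, −0.24 ± 0.12 at 4 weeks and −1.14 ± 0.20 at 8 weeks (adjusted p = 0.869, 0.227 and 0.00509). The lower level in Klf9KI hearts at 8 weeks passed the test in all 12 alternatives. Adjusted p-values lay between 2.99e-05 and 0.0423 and log2 fold changes between −1.28 and −1.02. Its paralogue Rxra (ENSMUSG00000015846, chr2:27676440-27762957) was in a separate, lower range in Klf9KI hearts at 4 weeks. Its values were 57.0 to 65.6 CPM there, against 71.8 to 82.1 CPM in Wt-Cre hearts. At 8 weeks the ranges were 53.7 to 72.1 CPM in Klf9KI and 78.8 to 91.9 CPM in Wt-Cre hearts. Its log2 fold changes were −0.01, −0.32 and −0.41 at the 3 ages and did not pass the test (adjusted p = 0.984, 0.114 and 0.191). Without Klf9KI replicate 2 the change at 8 weeks was −0.51 with an adjusted p of 0.0462.

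Tfam (ENSMUSG00000003923, chr10:71225464-71238280, minus strand) packages mitochondrial DNA and starts its transcription. At 8 weeks Klf9KI hearts had 38.4, 41.8 and 31.5 CPM and Wt-Cre hearts had 50.8, 48.3 and 55.0 CPM, which do not overlap. Its log2 fold changes were −0.02, 0.17 and −0.44 at 1, 4 and 8 weeks (adjusted p = 0.975, 0.501 and 0.167). The share of counts from genes of the mitochondrial genome was 13.8 to 14.2% in Klf9KI and 11.01 to 13.1% in Wt-Cre hearts at 1 week. At 4 weeks it was 19.3 to 19.8% and 20.2 to 24.9%, and at 8 weeks 18.6 to 20.9% and 27.7 to 29.7%.

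Counted over the 10 regulators, no gene was called at 1 week by edgeR's quasi-likelihood test or by DESeq2, and 1 had an unadjusted p under 0.05. Of all tested genes 0.651% were called higher and 1.03% lower at that age. At 4 weeks 0 members were called higher and 2 lower (Ppargc1a and Ppara), against 6.65% and 6.75% of all genes tested. At 8 weeks 0 were called higher and 2 lower (Ppargc1a and Rxrg), against 4.96% and 5.52% of all genes. Unadjusted p-values were under 0.05 for 4 members at 4 weeks and for 5 at 8 weeks, and DESeq2 called 2 at each of these ages. The members' median log2 fold change was 0.06 at 1 week, −0.24 at 4 weeks and −0.16 at 8 weeks, where the medians of all genes were −0.01, 0.00 and 0.04. The authors' deposited table gave Ppargc1a a log2 fold change of −1.24 at 4 weeks (adjusted p = 2.02e-05) and −0.81 at 8 weeks (adjusted p = 0.00555), Ppara −1.12 at 4 weeks (0.00132) and Rxrg −1.14 at 8 weeks (2.88e-05). At 8 weeks the ranges of 5 members did not overlap between genotypes, namely Ppargc1a, Esrra, Rxra, Rxrg and Tfam, and each was lower in Klf9KI hearts. Of 14462 tested genes listed at all ages, 17.1% lay wholly lower in this way, and Esrra, Rxra and Tfam did not pass the test.

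**Figure D3:**
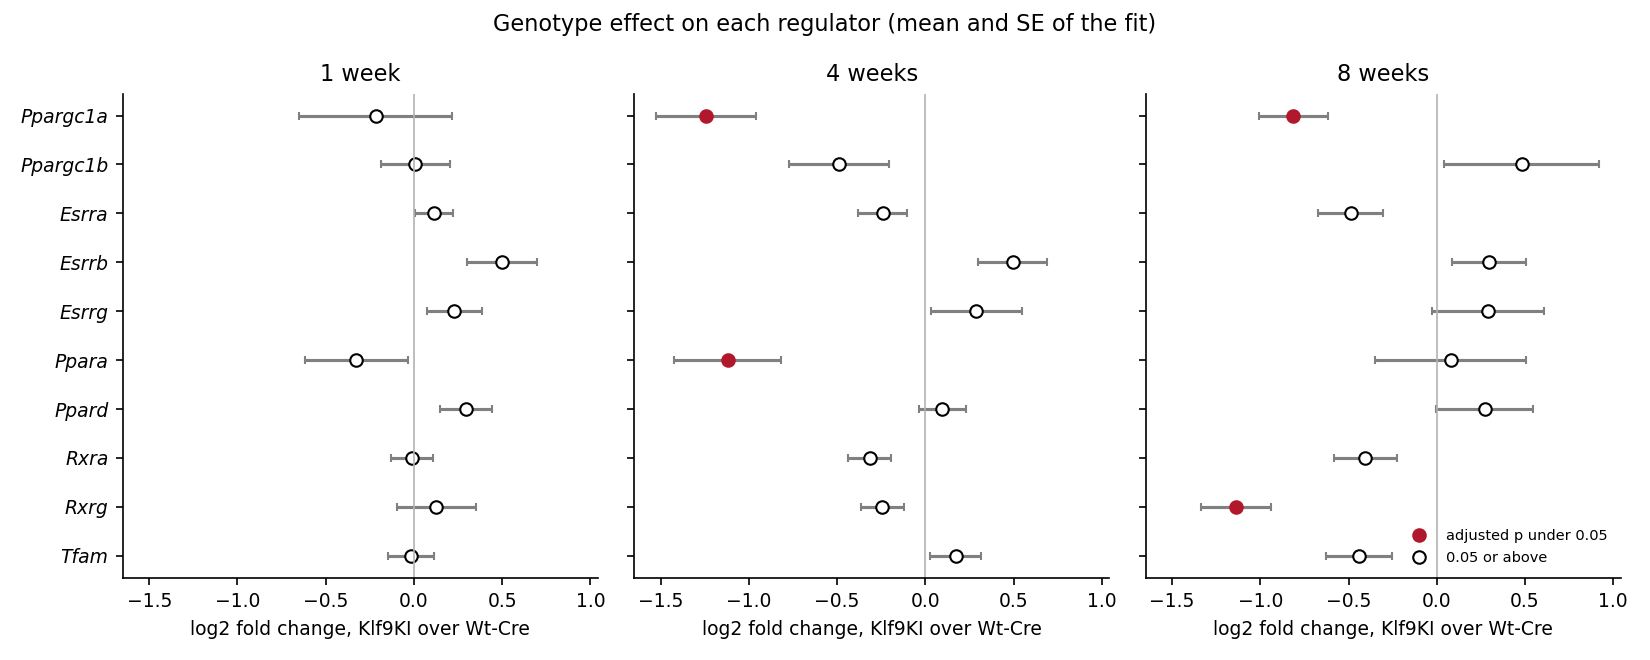
Log2 fold change of Klf9KI over Wt-Cre (± SE) of the 10 regulators at 1, 4 and 8 weeks, with filled points where the adjusted p of edgeR's quasi-likelihood test was under 0.05. The filled points are Ppargc1a at 4 and 8 weeks (−1.24 and −0.81), Ppara at 4 weeks (−1.12) and Rxrg at 8 weeks (−1.14).

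Whether the genotype effect itself changed with age was tested in 1 fit of the 18 libraries. The log2 fold change of Klf9KI over Wt-Cre was lower at 8 weeks than at 1 week for 2 members, against 5.53% of all genes, and DESeq2 called 2. They were Rxrg, whose fold change was lower at 8 weeks by −1.30 ± 0.27 on the log2 scale (adjusted p = 0.00453), and Esrra, with −0.64 ± 0.20 (adjusted p = 0.0454). The Rxrg difference passed in all 23 alternatives (adjusted p between 0.000344 and 0.0197), none of which had sex or the Myl7 level as a covariate. The Esrra difference was lost in 16 of 23, with adjusted p-values between 0.0165 and 0.159. Between 1 and 4 weeks 0 members passed with edgeR and 0 with DESeq2, 1 had an unadjusted p under 0.05, and 1.15% of all genes were called in either direction. Ppargc1a had the lowest value there, −1.03 ± 0.44 (adjusted p = 0.410). Between 4 and 8 weeks 0 members passed with either tool, 2 had an unadjusted p under 0.05, and 0.48% of all genes were called. The effects on Ppara of −1.12 at 4 weeks and 0.08 at 8 weeks were therefore not shown to differ (difference 1.17 ± 0.59, adjusted p = 0.396).

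The postnatal course of Wt-Cre hearts had a crest at 4 weeks for several of these regulators. From 1 to 4 weeks 7 of 10 rose, against 17.4% of all genes, and DESeq2 called 7. The rise was 2.53 ± 0.43 for Ppara on the log2 scale (adjusted p = 0.000187), 2.12 ± 0.20 for Rxrg (1.15e-07), 1.54 ± 0.21 for Esrrb (1.15e-05) and 1.46 ± 0.32 for Ppargc1a (0.00158). Esrrg rose by 1.27 (adjusted p = 0.00267), Ppard by 1.06 (0.000461) and Ppargc1b by 1.02 (0.0378), the last with overlapping ages and an adjusted p of 0.162 without Wt-Cre replicate 2 of 4 weeks. Rxra, Esrra and Tfam had changes of 0.22, 0.11 and 0.01 that did not pass (adjusted p = 0.242, 0.583 and 0.983).

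From 4 to 8 weeks 4 of the 10 fell in Wt-Cre hearts, against 8.09% of all genes, and DESeq2 called 5. Ppara fell by 1.74 on the log2 scale (adjusted p = 0.00814), Ppargc1b by 1.68 (0.00528) and Ppard by 0.74 (0.0162). Ppargc1a fell by 1.603 (adjusted p = 0.00233). Rxrg did not follow them, with a change of 0.23 (adjusted p = 0.422). Over the whole interval from 1 to 8 weeks 3 members rose, against 19.9% of all genes, and DESeq2 called 5. They were Rxrg by 2.35 (adjusted p = 1.71e-08), Esrrb by 1.595 (4.83e-06) and Esrra by 0.50 (0.00753). Ppargc1a ended near its level of 1 week, with a change of −0.14 (adjusted p = 0.767).

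In Klf9KI hearts 5 of 10 rose from 1 to 4 weeks, against 16.7% of all genes, and DESeq2 called 5. Rxrg rose by 1.74 ± 0.19 (adjusted p = 1.28e-06), Ppara by 1.73 ± 0.42 (0.00428), Esrrb by 1.53 ± 0.21 (1.23e-05), Esrrg by 1.33 ± 0.30 (0.00203) and Ppard by 0.86 ± 0.20 (0.00278). The PGC-1 genes had changes of 0.43 ± 0.31 for Ppargc1a and 0.51 for Ppargc1b that did not pass (adjusted p = 0.302 and 0.295). As given above, the 1-to-4-week courses of Ppargc1a in Klf9KI and Wt-Cre hearts did not pass the test of their difference. From 4 to 8 weeks 2 members fell, against 4.38% of all genes, and DESeq2 called 2. Ppargc1a fell by 1.21 (adjusted p = 0.0215) and Rxrg by 0.70 (0.0232). The Ppargc1a call was lost without replicate 2 of 4 weeks (adjusted p = 0.108) and without replicate 1 (0.106) or 3 (0.0850) of 8 weeks. The Rxrg call was lost without replicate 1 (0.0535), 2 (0.106) or 3 (0.0521) of 4 weeks and without replicate 1 of 8 weeks (0.0798). Without Klf9KI replicate 2 of 8 weeks, 6 members were called in that interval, among them Ppara at −1.39 (adjusted p = 0.00672), Ppargc1b at −1.37 (0.00613), Esrrg at −1.02 (0.00804) and Ppard at −0.85 (0.00357). From 1 to 8 weeks 4 members rose, against 14.9% of all genes, and DESeq2 called 4. They were Esrrb by 1.36 (adjusted p = 3.89e-05), Rxrg by 1.05 (0.000316), Ppara by 1.16 (0.0463) and Esrrg by 0.80 (0.0497). Of 22 alternatives the Ppara call was lost in 13 and the Esrrg call in 16. Without Klf9KI replicate 2 of 8 weeks, the changes of Ppara and Esrrg from 1 to 8 weeks were 0.34 and 0.31 (adjusted p = 0.494 and 0.398). The deposit has a separate table for every age, so in these courses age and anything else that differed between the tables cannot be told apart.

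**Figure D4:**
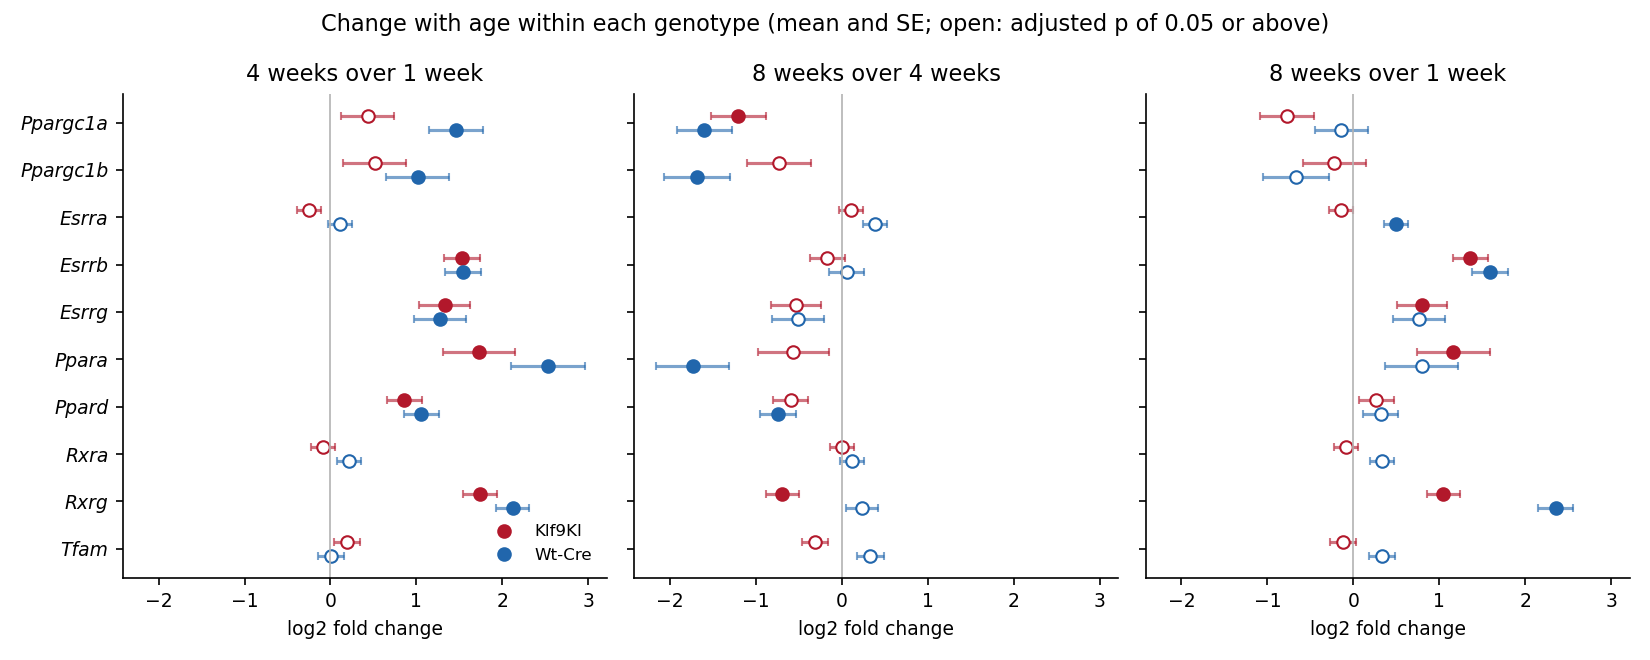
Log2 change (± SE) of the 10 regulators between ages within Klf9KI and within Wt-Cre hearts, for 4 over 1 week, 8 over 4 weeks and 8 over 1 week. From 4 to 8 weeks Rxrg has a change of −0.70 in Klf9KI hearts and 0.23 in Wt-Cre hearts, and from 1 to 4 weeks Ppargc1a has 0.43 in Klf9KI and 1.46 in Wt-Cre hearts.

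Klf9KI replicate 2 of 8 weeks, which recurs above, had the highest CPM of its group for Ppara, Ppargc1a, Ppargc1b, Esrrb, Esrrg, Ppard, Rxra and Tfam. In that library 13.8% of 16660 tested genes were more than 1.5 times above both group mates and 14.1% were as far below both. The same shares were 11.3% and 13.02% for Klf9KI replicate 3 of 8 weeks, and in the other 16 libraries they ran from 2.97% to 9.15% above and from 4.45% to 9.05% below. The part of this spread in the results was not tested beyond leaving each heart out.

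Within each family the mix of genes also moved with age. By length-corrected level, Esrra made up 91.1 ± 0.92% of the ERR genes in Klf9KI hearts and 92.3 ± 0.95% in Wt-Cre hearts at 1 week. At 4 weeks the shares were 76.4 ± 1.56% and 83.0 ± 4.68%, and at 8 weeks 81.6 ± 7.20% and 88.5 ± 1.74% (SD, n = 3 each). Rxrg made up 37.5 ± 3.77% of the Rxra and Rxrg total in Klf9KI hearts and 34.4 ± 7.64% in Wt-Cre hearts at 1 week, and 68.0 ± 1.67% and 66.9 ± 1.42% at 4 weeks. At 8 weeks its share was 57.0, 48.6 and 64.0% in the Klf9KI hearts and 70.9, 70.9 and 63.6% in the Wt-Cre hearts, ranges that overlap. Ppara made up 33.2, 47.7 and 46.1% of the Ppara and Ppard total in Klf9KI hearts and 42.9, 66.6 and 52.0% in Wt-Cre hearts at 1, 4 and 8 weeks. These shares are descriptions and were not tested.

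Downstream of the regulators stood a list of PPAR target genes for fatty acid handling. It was chosen, like the lists that follow, with earlier results of these data known, so the counts are descriptions and no independent check. At 4 weeks 10 of 18 tested targets fell and none rose, against 6.75% of all genes called lower, with a list median of −0.87 on the log2 scale. At 8 weeks 7 of 18 fell and none rose, against 5.52% of all genes, with a median of −0.78. Hadha, a subunit of the trifunctional protein of beta-oxidation, averaged 603 ± 65.2 CPM in Klf9KI and 1314 ± 267 CPM in Wt-Cre hearts at 4 weeks (log2 fold change −1.13, adjusted p = 0.00143). Its means at 8 weeks were 587 ± 118 and 1353 ± 151 CPM (−1.18, adjusted p = 0.00631). Acadm, the medium-chain acyl-CoA dehydrogenase, fell by 0.85 at 4 weeks and by 1.16 at 8 weeks (adjusted p = 0.00463 and 0.00555). Plin5, a lipid droplet coat protein, fell by 1.04 and 1.21 (0.000662 and 0.00358), and Slc25a20, the carnitine-acylcarnitine carrier, by 0.97 and 1.26 (0.00279 and 0.00207). At 1 week 1 of 19 targets fell, Ucp2, at 108 ± 14.2 CPM in Klf9KI and 199 ± 44.7 CPM in Wt-Cre hearts (−0.89, adjusted p = 0.0178). The Ucp2 call was lost, and the count was 0, with the replicate block (adjusted p = 0.0577) and without Klf9KI replicate 2 (0.104) or 3 (0.0506). The same held with Myl7 as a covariate (0.167) and in the fit of 18 libraries (0.161). It was also lost with sex as a covariate and without the Xist-carrying libraries, fits that rest on 1 Klf9KI heart. The count at 4 weeks was 6 after leaving out Klf9KI replicate 1, Klf9KI replicate 2 or Wt-Cre replicate 2, and the count at 8 weeks was 4 without Wt-Cre replicate 1 or 3.

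A second list held targets of ERR and PGC-1, mostly of the respiratory chain and the tricarboxylic acid cycle. Of 19 tested, 0 were called at 1 week with edgeR (5 at an unadjusted p under 0.05, 3 by DESeq2), 5 fell at 4 weeks and 10 fell at 8 weeks, against 6.75% and 5.52% of all genes, and none rose. The list medians were 0.17, −0.27 and −0.78. Slc25a4, the main ADP/ATP carrier of heart, averaged 3430 ± 828 CPM in Klf9KI and 8637 ± 1927 CPM in Wt-Cre hearts at 8 weeks (log2 fold change −1.31, adjusted p = 0.00988). Cycs, cytochrome c, averaged 417 ± 23.4 and 866 ± 68.7 CPM (−1.03, adjusted p = 0.00631), and Ldhb, the heart lactate dehydrogenase subunit, fell by 0.90 (0.0172). At 4 weeks Slc25a4 fell by 0.72 (adjusted p = 0.00803), the myoglobin gene Mb by 0.58 (0.00818) and the fumarase gene Fh1 by 0.56 (0.0129). Acadm belongs to both target lists and so counts in each. Without Klf9KI replicate 1 or 3 the count at 4 weeks was 1 or 2, and at 8 weeks it was 3 without Klf9KI replicate 1 and 2, 1 and 6 without Wt-Cre replicates 1, 2 and 3. From 1 to 4 weeks 8 of 19 rose in Klf9KI hearts, against 16.7% of all genes, and 18 of 19 rose in Wt-Cre hearts, against 17.4%. DESeq2 called 11 in Klf9KI and 18 in Wt-Cre hearts, and 12 and 18 had an unadjusted p under 0.05 with edgeR. Differences between these courses were not counted for this list. The genotype effect on 14 of the 19 was lower at 8 weeks than at 1 week, against 5.53% of all genes.

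**Figure D5:**
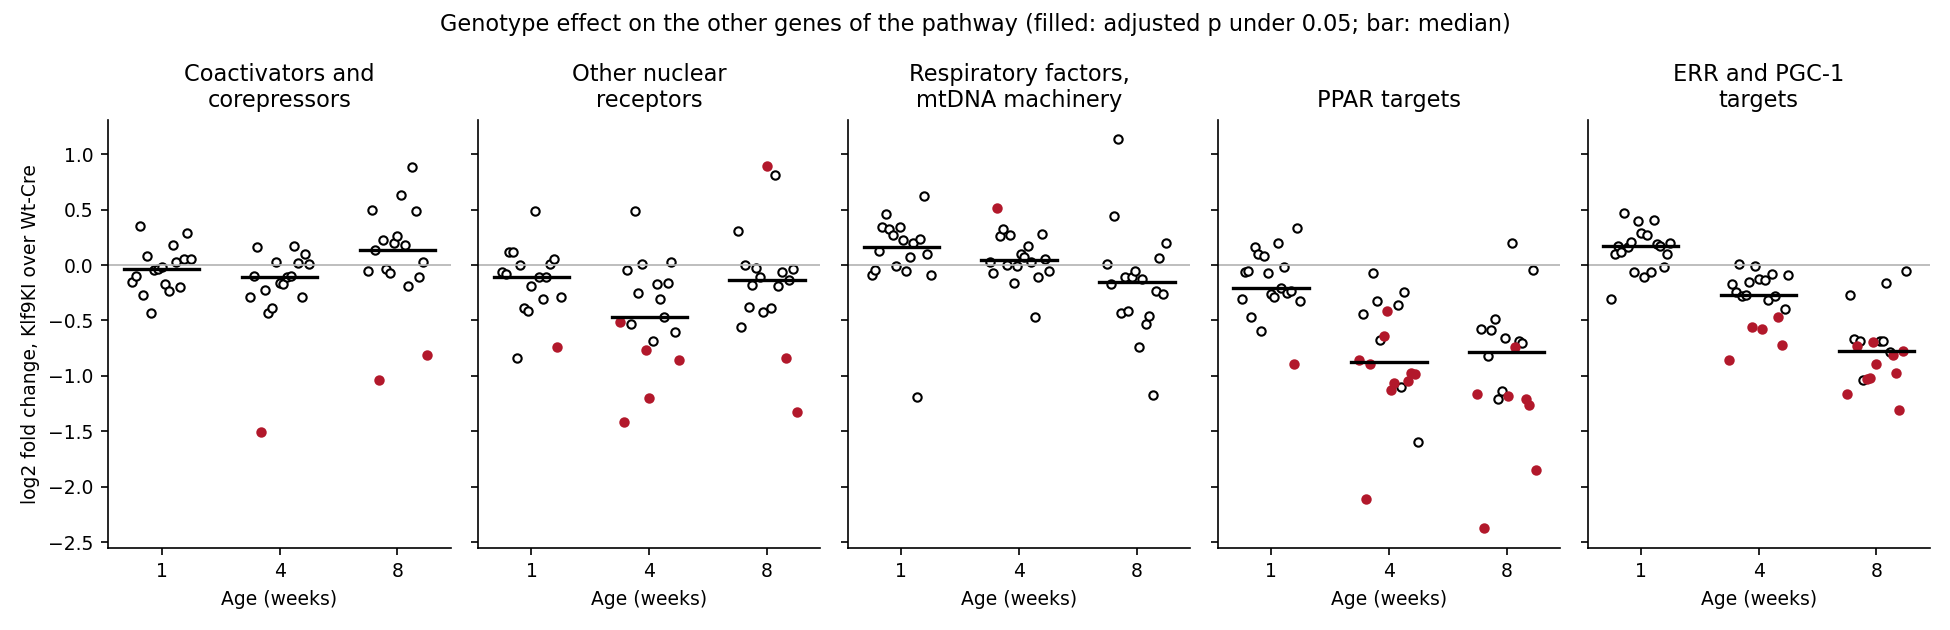
Log2 fold change of Klf9KI over Wt-Cre for the tested genes of 5 pathway lists at 1, 4 and 8 weeks, 1 point per gene with a bar at the list median. The medians of the PPAR targets are −0.21, −0.87 and −0.78 and those of the ERR and PGC-1 targets 0.17, −0.27 and −0.78, while the median of all genes stays between −0.01 and 0.04.

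Other factors of the same network were counted in the same way. Of 17 other coactivators and corepressors, 0 were called at 1 week (2 at an unadjusted p under 0.05, 0 by DESeq2), 1 fell at 4 weeks and 2 fell at 8 weeks, against 6.75% and 5.52% of all genes called lower, with list medians of −0.03, −0.11 and 0.13. Lpin1, a PGC-1alpha partner and phosphatidate phosphatase, averaged 88.3 ± 10.02 CPM in Klf9KI and 249.6 ± 30.3 CPM in Wt-Cre hearts at 4 weeks (log2 fold change −1.51, adjusted p = 7.69e-05). At 8 weeks it averaged 71.8 ± 30.0 and 149.6 ± 14.1 CPM (−1.04, adjusted p = 0.0279), and the mitochondrial deacetylase gene Sirt3 fell by 0.82 (0.0307). At 8 weeks both were lost, leaving 0 calls, without Klf9KI replicate 1 or any 1 of the Wt-Cre replicates (adjusted p up to 0.129 for Lpin1 and 0.152 for Sirt3). The count at 4 weeks was 3 with the replicate block and 4 without Wt-Cre replicate 3. Of 18 nuclear respiratory factors and genes of the mitochondrial DNA machinery, 1 was called across the ages: Lonp1, a mitochondrial protease, was higher at 4 weeks, with 225 ± 13.3 CPM in Klf9KI and 157 ± 9.90 CPM in Wt-Cre hearts (log2 fold change 0.51, adjusted p = 0.0192). It was lost without Klf9KI replicate 1 (adjusted p = 0.1202) or 2 (0.0888) or Wt-Cre replicate 2 (0.0599), which left 0 calls. That list had 0 calls at 1 and 8 weeks with edgeR (5 and 3 at an unadjusted p under 0.05, 1 each by DESeq2).

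Among 17 other nuclear receptors of cardiac metabolism, 1 fell at 1 week, 5 fell at 4 weeks, and 1 rose and 2 fell at 8 weeks. Of all genes 1.03%, 6.75% and 5.52% were called lower at 1, 4 and 8 weeks and 4.96% higher at 8 weeks. The thyroid hormone receptor gene Thra was lower at 1 week, with 86.2 ± 3.45 CPM in Klf9KI and 143 ± 14.9 CPM in Wt-Cre hearts (log2 fold change −0.74, adjusted p = 0.00258). That call was lost with the Myl7 level as a covariate (adjusted p = 0.0618) and in the fit of 18 libraries (0.146). It was also lost with sex as a covariate and without the Xist-carrying libraries, fits that rest on 1 Klf9KI heart. Its paralogue Thrb fell by 0.86 at 4 weeks and by 1.33 at 8 weeks (adjusted p = 0.00517 and 0.0266), the second call being lost without Klf9KI replicate 1 (0.103) or Wt-Cre replicate 3 (log2 fold change −0.84, 0.128). Nr1d2, a clock repressor, fell by 1.42 at 4 weeks (0.0106), and Nr3c2, the mineralocorticoid receptor gene, fell by 0.77 (0.0259). Of 12 alternatives the Nr1d2 call was lost in 3 (adjusted p up to 0.0785) and the Nr3c2 call in 5 (up to 0.134). The count at 4 weeks was 2 without Klf9KI replicate 1 and 3 without Klf9KI replicate 3 or Wt-Cre replicate 2, and the count at 8 weeks was 1 or 0 without Klf9KI replicate 1 or any of the Wt-Cre replicates. Nr4a1, an immediate-early receptor gene, fell by 1.196 at 4 weeks (adjusted p = 8.50e-05). At 8 weeks its log2 fold change was 0.89 (adjusted p = 0.0288), a call lost without Klf9KI replicate 1 (0.117), without Wt-Cre replicate 1 (0.137), 2 (0.1304) or 3 (0.0835), and in the fit of 18 libraries (0.0501).

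Levels of marker genes for cell types shifted in the same comparisons. The summed CPM of 9 cardiac muscle markers was 53263 to 60182 in Klf9KI and 68012 to 76375 in Wt-Cre hearts at 4 weeks, and 44444 to 47224 and 60079 to 76044 at 8 weeks. Of these markers 3 of 9 fell at 4 weeks and 2 of 9 at 8 weeks, against 6.75% and 5.52% of all genes called lower. The muscle marker Tnnt2, which was not called, overlapped between the genotypes at both ages. Of the summed CPM, Myh6 alone held 17965 to 22585 in Klf9KI and 28059 to 34498.5 in Wt-Cre hearts at 4 weeks. At 8 weeks it held 5386 to 11641 and 14036 to 17706 CPM. The myosin gene Myh7, not among the 9, went the other way. Its levels were 2128 to 2489 and 438 to 890 CPM at 4 weeks, and 1643 to 6917 and 201 to 337 CPM at 8 weeks. The 6 fibroblast markers summed to 1131 to 2246 CPM in Klf9KI and 694 to 859 CPM in Wt-Cre hearts at 8 weeks, where 2 of 6 rose. At 4 weeks they summed to 1549 to 1916 CPM and 963 to 1422 CPM, and 1 of 6 rose. Of all genes 4.96% were called higher at 8 weeks and 6.65% at 4 weeks. The Col1a2 call was lost in 5 of 12 alternatives at 4 weeks and in 2 at 8 weeks. Of 6 endothelial markers 0 were called at any age. The 7 macrophage markers summed to 624 to 802 CPM in Klf9KI and 412 to 530 CPM in Wt-Cre hearts at 8 weeks, and 4 of 7 rose. Of 12 alternatives those calls were lost in 3 for Adgre1, 4 for Csf1r, 5 for C1qc and 6 for C1qb. At 4 weeks 1 of 7 rose, Adgre1, a call lost in 6 of 12. The 4 smooth muscle markers summed to 110.5 to 148.4 CPM in Klf9KI and 417 to 1145 CPM in Wt-Cre hearts at 4 weeks, and to 105 to 227 CPM and 255 to 678 CPM at 8 weeks. The one that passed was Acta2, smooth muscle actin, which fell by 2.87 at 4 weeks and fell by 1.905 at 8 weeks (adjusted p = 0.00317 and 0.00827). Acta2 made up most of these sums in Wt-Cre hearts, with means of 93.9 CPM in Klf9KI and 684 CPM in Wt-Cre hearts at 4 weeks. At 8 weeks its means were 83.3 and 316 CPM. The median log2 fold change of the 4 markers was −0.26 at 4 weeks and −0.60 at 8 weeks. Of 6 atrial markers 3 were tested at 4 and at 8 weeks, and 2 rose at each age, Nppa and Dkk3. Nppa, the atrial natriuretic peptide gene, was at 1658 to 2711 CPM in Klf9KI and 53.3 to 241 CPM in Wt-Cre hearts at 8 weeks, while the atrial gene Myl7 was at 0.08 to 1.67 CPM and 0 to 0.66 CPM. Dkk3 averaged 39.3 CPM in Klf9KI and 6.06 CPM in Wt-Cre hearts at 8 weeks (log2 fold change 2.71, adjusted p = 0.00123). At 4 weeks its log2 fold change was 1.665 (adjusted p = 0.00729). The part of these shifts in the lower levels of Ppargc1a, Ppara, Rxrg and their targets in Klf9KI hearts was not tested.

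The genes whose 6 group means most resembled those of 3 regulators were searched among 14100 protein-coding genes, by the root mean square difference of centred log2 CPM. For Ppargc1a, whose group means spanned 2.37 on the log2 scale, they were Syt2 (0.17), Syt7 (0.17) and Ret (0.19). For Esrra, spanning 0.62, they were Emg1, Rpp30 and Scnm1, with differences of 0.04 to 0.05. For Ppara, spanning 2.72, they were Wnt2b (0.14), Kcna1 (0.20) and Anxa11 (0.24).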

How the data were processed

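The authors deposited 1 gene table per age, whose raw counts per gene and heart, per the file headers, were the values tested. The titles call the RNA total RNA, while the labels' protocols describe poly-A selection and name both stranded and unstranded kits, so counts of overlapping genes are uncertain. The authors' log2 fold changes and adjusted p-values are quoted where named, per the file headers. FPKM and normalised columns were not used. The submitters' processing notes name build mm10, DESeq2 1.20.0, featureCounts 1.5.0-p3, HISAT2 2.0.5, fastp, MACS2 2.1.0, StringTie 1.3.3b and BWA. The authors deposited a table of merged Klf9 regions with, per the file headers, each library's mean signal and presence call and a log2 ratio (TAC over sham). The scaling of that signal is not given in the sources used here. No column of per-sample values lacked a sample.

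Tests within an age used the quasi-likelihood method of edgeR 4.0.16 (R 4.3.3) after filterByExpr and TMM, with Benjamini-Hochberg adjustment over all genes tested (15825, 14513 and 14483 at 1, 4 and 8 weeks) and a threshold of 0.05. Courses and differences between ages came from 1 fit of 18 libraries with 6 group means over 16660 tested genes. The plan named this test without its robust option. The default was run first and called 166, 1910 and 1534 genes at 1, 4 and 8 weeks. The robust option, as in earlier processing of these data, called 266, 1945 and 1518 and was taken after both had been seen. Fits were tested on simulated data. DESeq2 1.42.0, other scaling, no filter, a replicate block and leaving out each heart were alternatives.

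CPM was scaled over the 18 libraries, and division by gene length gave CPM per kb. Means carry the SD of 3 hearts, and fitted log2 fold changes carry their SE. The titles state n = 3 and no litter, so p-values measure only how these samples vary among themselves, which may be technical. The tests took hearts as unpaired, because at no age were all 3 same-numbered correlations above 0.1. That cut does not settle whether the library numbers in the columns pair hearts. At 8 weeks same-numbered correlations were 0.063 to 0.144, against at most 0.033 for other pairs. At 4 weeks they were 0.029 to 0.232 against at most 0.089, and at 1 week −0.118 to 0.097 against at most 0.15. The replicate block is the paired alternative. The members and lists were chosen with earlier results of these data known. Named are the 10 members, Klf9, up to 4 called genes per list and age by adjusted p (1 of them is not reported here), and the 3 nearest genes of Ppargc1a, Esrra and Ppara, with a pseudocount of 0.5 CPM. Marker genes, Mir378 and the authors' values were added after their values were seen. Sequences are from RefSeq, GRCm38.p6, and 9 of the 10 members had a promoter window.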

Additional observations from a re-analysis of the deposited data

Results flagged for a closer look

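The Klf9KI-over-Wt-Cre effect differed between ages for 3 genes by the interaction test of edgeR's fit of 18 libraries. For the targeted gene Klf9 the log2 fold change was lower at 4 than at 1 week by −2.89 (adjusted p = 2.01e-06) and lower at 8 than at 1 week by −2.11 (adjusted p = 2.85e-05). In Klf9KI hearts Klf9 had 152 to 183 CPM at 1 week, 149 to 185 CPM at 4 weeks and 125 to 144 CPM at 8 weeks, and in Wt-Cre hearts 14.0 to 18.9, 118 to 147 and 47.7 to 77.4 CPM. For Rxrg, the muscle-enriched retinoid X receptor gene, the effect at 8 weeks minus that at 1 week was −1.30 (adjusted p = 0.00453). For Esrra the same difference was −0.64 (adjusted p = 0.0454), and it was lost in 16 of 23 alternatives.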

How the results depend on the processing

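The lower level of Rxrg in Klf9KI than in Wt-Cre hearts at 8 weeks held in every alternative run for it. So did the change of its genotype effect between 1 and 8 weeks. The calls of Ppargc1a and Ppara did not, as given beside them. Sex and the Myl7 level were covariates only in the comparison at 1 week. The changes of effect and the courses from 1 week were therefore not tested against them. Members called at 4 weeks numbered 1 with no filter, which was Esrrb, higher in Klf9KI, and 1 in the fit of 18 libraries, which was Ppargc1a, and members called at 8 weeks numbered 4 in that fit (Rxrg, Esrra, Rxra and Tfam). For the change of effect from 1 to 8 weeks there was 1 call with no filter and 1 with the replicate block, for 8 over 1 week 5 with DESeq2 in Wt-Cre hearts and 2 with no filter in Klf9KI hearts. Members with a Klf9 region numbered 2 when both libraries had to call it and 2 among regions above the median sham signal.

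Leaving out 1 heart at a time gave 0 to 3 calls at 4 weeks, 1 to 3 at 8 weeks, 0 to 1 for the change of effect from 1 to 4 weeks, 1 to 2 from 1 to 8 weeks and 0 to 1 from 4 to 8 weeks. For 8 over 1 week it gave 2 to 5 in Klf9KI and 2 to 6 in Wt-Cre hearts, and for 8 over 4 weeks 0 to 6 in Klf9KI hearts. Values that were not called in the analysis reported reversed sign under some settings, the largest being 0.48 for Ppargc1b at 8 weeks. With sex as a covariate the 1-week log2 fold changes were 0.036 for Ppargc1a, 0.045 for Ppara and −0.0099 for Rxrg, without the Xist-carrying libraries 0.053 for Ppargc1a and 0.060 for Ppara, and with Myl7 as a covariate −0.027 for Ppargc1b and −0.046 for Esrra. Rxra for 8 over 4 weeks in Klf9KI hearts was −0.018 with no filter, and the change of effect on Esrrg from 4 to 8 weeks was 0.0084 with DESeq2's size factors and 0.0098 with its Wald test.

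Over single hearts left out, the 1-week fold changes ran from −0.43 to 0.33 for Ppargc1a, −0.16 to 0.19 for Ppargc1b, −0.14 to 0.078 for Rxra, −0.069 to 0.46 for Rxrg and −0.12 to 0.12 for Tfam. At 4 weeks Esrrg ran from −0.00090 to 0.51. At 8 weeks Ppargc1b ran from −0.14 to 0.74, Esrrg from −0.18 to 0.57 and Ppara from −0.72 to 0.39. For the change of effect from 1 to 4 weeks Esrrb ran from −0.18 to 0.21 and Esrrg from −0.23 to 0.28. From 1 to 8 weeks Ppargc1b ran from −0.18 to 0.71, Esrrg from −0.44 to 0.32, Ppara from −0.45 to 0.69 and Ppard from −0.30 to 0.21, and from 4 to 8 weeks Esrrg from −0.50 to 0.26 and Ppard from −0.098 to 0.41. In Wt-Cre hearts Tfam for 4 over 1 week ran from −0.12 to 0.16, Esrrb for 8 over 4 weeks from −0.13 to 0.26 and Ppargc1a for 8 over 1 week from −0.40 to 0.36. In Klf9KI hearts Rxra ran from −0.16 to 0.043 for 4 over 1 week, −0.12 to 0.097 for 8 over 4 weeks and −0.21 to 0.033 for 8 over 1 week, and Ppargc1b for 8 over 1 week from −0.86 to 0.039. The cause was not tested.

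With the replicate block, Ppara at 8 weeks was −0.15 and the change of effect on Esrrg from 1 to 8 weeks −0.076, and Esrra lost its change of effect (adjusted p = 0.0554). The block could not be fitted for courses, because numbers do not repeat across ages.

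Over all genes, the 266 called at 1 week became 166 without the robust option, 530 with DESeq2 and 672 with no filter. The count was 51 with Myl7 as a covariate and 47 in the fit of 18 libraries. Fits with sex as a covariate or without the Xist-carrying libraries rest on 1 Klf9KI heart at 1 week, so their counts are left out. At 8 weeks 1518 became 3278 in that fit. For the change of effect DESeq2 called 399 against 192 from 1 to 4 weeks and 416 against 80 from 4 to 8 weeks. Without the robust option Esrrg passed for 8 over 1 week in Wt-Cre hearts (adjusted p = 0.0474, against 0.0509). Ppargc1b and Ppara, with as few as 64 and 92 reads in a library, are the most limited by depth.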
